A study of Mus musculus with 18 samples.

Results

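The levels of 10 genes of the liver X receptor (LXR) response and of cholesterol efflux were followed across 18 RNA-seq libraries of bone marrow-derived macrophages (BMDMs). The genes were chosen by name, with no measured value in the rule: the receptors Nr1h3 and Nr1h2, the exporters Abca1 and Abcg1, the lipoprotein genes Apoe and Pltp, the lipid regulators Mylip, Srebf1 and Lpcat3, and the oxysterol enzyme Ch25h. All 10 were among the 20615 genes of the deposited table and all 10 passed the filter on low counts, which kept 15789 genes.

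The study asked how macrophages of the C57BL/6.NOD-Aec1Aec2 mouse (SjSs), a model of Sjögren's disease that carries the Aec1 and Aec2 intervals of the non-obese diabetic (NOD) mouse on a C57BL/6 (B6) background, respond to apoptotic cells (ACs). BMDMs of female B6 and SjSs mice aged 7 to 12 weeks were left untreated, given ACs, or given 1 µM CpG, DNA with unmethylated CpG motifs that toll-like receptor 9 senses, for 6 h. The ACs were thymocytes killed with dexamethasone, 5 for each BMDM, which were washed off after 2 h. RNA was collected 3 h after that by the labels, 3 samples for each of the 6 groups. The BMDMs of all groups had been grown from marrow in M-CSF from L929 cells. The BMDMs came from 3 mice of each strain, and which of the 9 samples of a strain came from which mouse was not stated in the sources used here. Samples given different treatments can thus share a mouse, and the p values measure the spread between these samples only. Thymi were taken from B6 and SjSs mice, and the strain of the thymocytes given to each AC treated sample was not stated. That strain may differ along with the strain of the BMDMs, and its part in the results with ACs was not tested.

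LXRs are nuclear receptors that are switched on by oxysterols, the oxidized forms of cholesterol, and that bind DNA together with the retinoid X receptors (RXRs). Their targets move cholesterol out of the cell through ABC transporters onto lipoprotein particles, and limit its uptake. A macrophage that engulfs a dying cell takes in that cell's cholesterol as well, and this pathway is a main outlet for it.

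Sequence is shown for 3 of the genes: Abca1 and Srebf1 for a partial match to the LXR element, and Ch25h for the cyclic AMP response element. The consensus LXR element, called DR4, is a pair of AGGTCA copies held 4 bases apart (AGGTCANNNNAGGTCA). RefSeq promoter sequence (GRCm38.p6) was at hand for 9 of the 10 genes, as 14 start sites (Abcg1 was the gene without), and the 250 bases before each start were searched on both strands. The full consensus stood in 5 of 32851 promoters (0.0152%) and in 0 of the 14. Allowing 3 mismatches in its 12 fixed letters admitted 18.5% of all promoters. Abca1 and the most downstream of the 3 Srebf1 starts each held such a window with the letters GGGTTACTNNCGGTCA, a pattern spelled out from these same matches, so that its rarity is no test. It stood in 3 of 32851 promoters (0.00913%), the other being that of Fasn, fatty acid synthase. The windows are given here on the strand opposite to the gene, with the letters of the pattern's outer blocks in capitals.
Abca1, chr4:53159947-53159962, bases -67 to -52 from the start: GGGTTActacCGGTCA
Srebf1, chr11:60210638-60210653, bases -182 to -167: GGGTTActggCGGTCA
Fasn, chr11:120824757-120824772, bases -225 to -210: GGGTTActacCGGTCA

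The promoters of Abca1 and Srebf1 are printed on the strand of the gene, where the window reads in reverse and is in capitals. That of Ch25h has in capitals TGACGTCA, the cyclic AMP response element, which reads the same on both strands. It lay at bases -61 to -54 from the RefSeq start and was in 1 of the 14 promoters and in 1.55% of all. The Ch25h stretch printed is 234 bases, as the bases nearest that start lie within the gene by GENCODE M21 and were left out. The E-box CACGTG stood in 1 of the 14, that of Abca1 (6.02% of all promoters), and TATAAA in 4 (12.4%). A match says only that the letters are there. All 3 genes lie on the minus strand, and the Ch25h stretch also overlaps an exon of Gm26902, a long non-coding RNA of the other strand.
Abca1, chr4:53159896-53160145: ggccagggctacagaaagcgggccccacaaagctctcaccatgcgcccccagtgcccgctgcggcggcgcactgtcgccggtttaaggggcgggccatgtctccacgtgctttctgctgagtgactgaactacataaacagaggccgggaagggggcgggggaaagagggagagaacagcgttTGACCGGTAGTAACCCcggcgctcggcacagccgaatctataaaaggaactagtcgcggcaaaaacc
Srebf1, chr11:60210472-60210721: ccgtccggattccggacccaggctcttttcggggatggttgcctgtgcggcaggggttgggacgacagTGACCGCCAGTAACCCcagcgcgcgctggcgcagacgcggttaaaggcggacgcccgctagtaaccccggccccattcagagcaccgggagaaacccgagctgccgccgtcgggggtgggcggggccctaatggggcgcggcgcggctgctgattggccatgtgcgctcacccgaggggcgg
Ch25h, chr19:34475165-34475398: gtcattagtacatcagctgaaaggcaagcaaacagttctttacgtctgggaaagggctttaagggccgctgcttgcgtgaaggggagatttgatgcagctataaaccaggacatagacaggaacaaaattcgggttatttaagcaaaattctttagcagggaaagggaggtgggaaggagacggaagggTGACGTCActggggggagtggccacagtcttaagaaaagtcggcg

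The libraries held 30688288 to 57139640 counts (median 47912516), and levels are given as CPM, counts set to the same library total, after scaling by the trimmed mean of M values (TMM). All 8 macrophage markers were tested and summed to 15105 to 23748 CPM in a library. Of 13 thymocyte and T cell markers, 3 passed the filter (Cd4, Lck and Thy1). The sum of all 13 was lower with ACs than in controls in B6 (4.43 to 5.28 against 7.93 to 10.1 CPM) and higher in SjSs (13.8 to 18.4 against 10.3 to 11.7 CPM), so that it moved along with the interactions with ACs. Most of it was Cd4, which fell with ACs in B6 (-1.27) and rose in SjSs (0.44). Lck rose in SjSs from a mean of 0.155 to 0.651 CPM (2.11), and in B6 its change of 1.02 did not pass. Rag1, which immature lymphocytes need to rearrange their receptors, was at 0 in all control and CpG treated samples and had 24 counts over the AC treated B6 and 3 over the AC treated SjSs samples. Cd3d, Cd3e, Cd3g and Trac were at 0.181 CPM or less in every library. Stromal markers summed to 22.3 to 68.6 CPM in B6 and to 76.6 to 116 CPM in SjSs samples, mainly from Col1a1, and that difference between strains runs alongside each strain difference given here. The part of these other cells in the results was not tested. In bulk RNA, fewer cells of a type and less RNA per cell cannot be told apart.

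Set against exon length (GENCODE M21), the 10 genes spanned a wide range in untreated B6 BMDMs. Apoe, the apolipoprotein that macrophages secrete to carry lipid, was at 13014 CPM per kilobase, the first of 19869 genes with a length, and took 1.38% to 3.04% of all counts in a library. Pltp, Abca1 and Mylip followed at 128, 120 and 63.2 CPM per kilobase. Nr1h2, Nr1h3, Abcg1, Lpcat3 and Srebf1 lay between 28.3 and 11.6 CPM per kilobase. Ch25h was at 0.473 CPM per kilobase, rank 11609. With the length of the longest transcript in place of all exons, Apoe was at 19761 and Ch25h again at 0.473 CPM per kilobase.

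**Figure D1:**
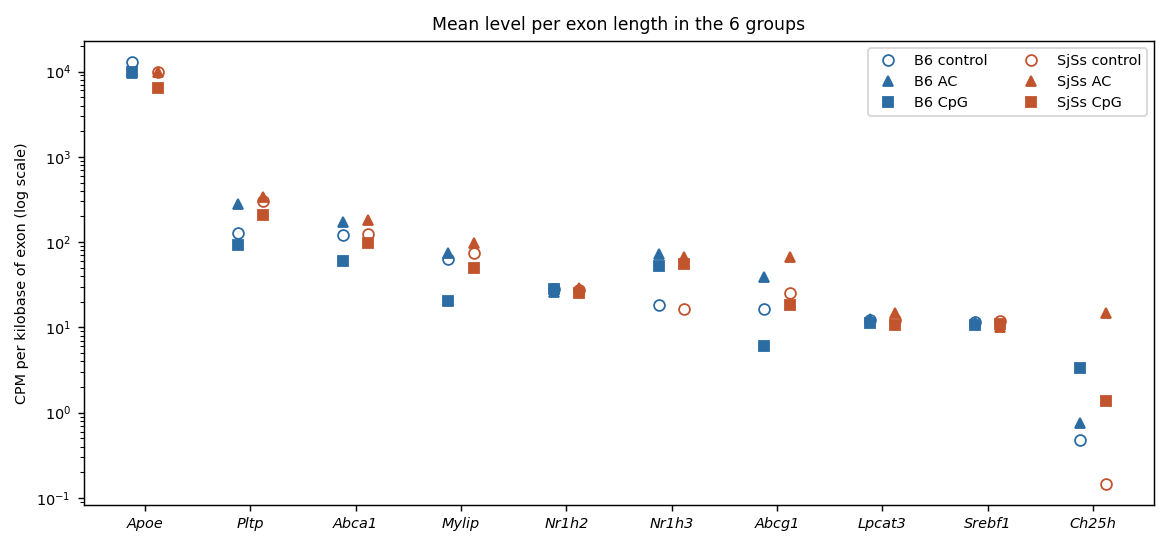
Mean level of the 10 genes in CPM per kilobase of exon (vertical axis, log scale) in the 6 groups (blue: B6, orange: SjSs; open circles: control, triangles: AC, squares: CpG). Apoe stands far above the rest at 13014 CPM per kilobase in B6 controls, and Ch25h covers the widest range, from 0.147 in SjSs controls to 14.7 in AC treated SjSs BMDMs.

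With ACs, the LXR alpha gene and both exporters rose in each strain. In B6 BMDMs 4 of the 10 genes rose at an adjusted p under 0.05 (Nr1h3, Abcg1, Pltp and Abca1), where 20.0% of all genes did, and 1 fell (Apoe), where 18.3% did. In SjSs BMDMs 6 rose (Ch25h, Nr1h3, Abcg1, Abca1, Mylip and Lpcat3) against 28.6% of all genes, and 1 fell (Srebf1) against 29.4%. The median log2 fold change of the 10 was 0.38 in B6 and 0.33 in SjSs, where the median over all genes was 0.0015 and -0.017. With a log2 fold change over 1.3 as a further condition, 1 gene rose in B6 (Nr1h3; 2.43% of all genes rose past it and 2.04% fell) and 3 in SjSs (Ch25h, Nr1h3 and Abcg1; 7.09% rose and 5.83% fell), and 0 of the 10 fell in either strain.

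With CpG, Nr1h3 rose again but the exporters fell. In B6 BMDMs 2 genes rose (Ch25h and Nr1h3), against 28.1% of all genes, and 5 fell (Mylip, Abcg1, Abca1, Pltp and Apoe), against 29.8%. In SjSs BMDMs the same 2 rose, against 27.8%, and 6 fell (those 5 and Lpcat3), against 26.4%. The medians were -0.26 and -0.27, beside -0.041 and -0.014 over all genes. Past the log2 fold change of 1.3, 2 genes rose and 2 fell in B6 (Mylip and Abcg1; 5.86% and 6.88% of all genes), and 2 rose and 0 fell in SjSs (4.81% and 4.45%). The 2 responses of a strain share its control samples.

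**Figure D2:**
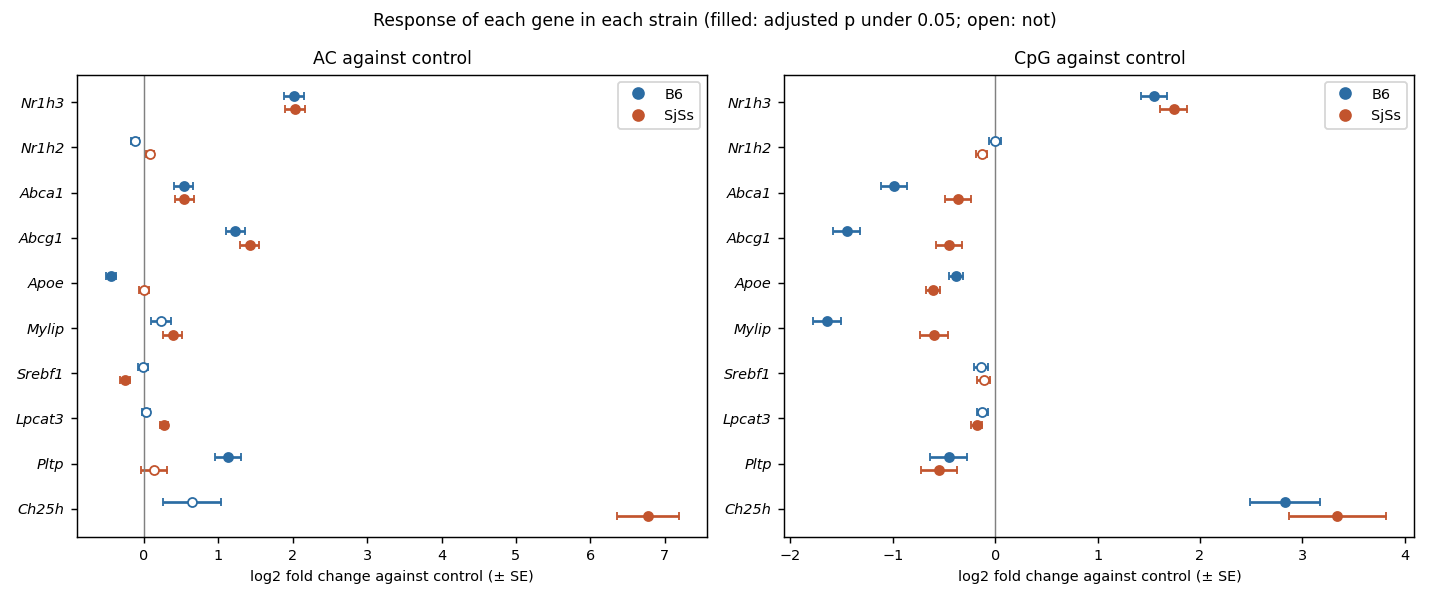
Log2 fold change against the control of the same strain (horizontal axis, bars ± SE) for ACs (left) and CpG (right), with B6 in blue, SjSs in orange and filled points for an adjusted p under 0.05. Nr1h3 lies to the right of 0 in all 4 responses, Abca1 and Abcg1 to the right with ACs and to the left with CpG, and Ch25h stands at 6.77 with ACs in SjSs BMDMs against 0.65 in B6.

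Set directly against CpG, ACs gave higher levels of 6 genes in B6 (23.7% of all genes were higher) and of 8 in SjSs (25.7%), and a lower level of 1 in B6 (22.4%) and of 0 in SjSs (26.5%). By the size of the difference in B6, the 6 were Abcg1, Mylip, Pltp, Abca1, Nr1h3 and Lpcat3, and the gene lower with ACs was Ch25h. Past a log2 fold change of 1.3, 4 were higher and 1 lower in B6 (3.64% and 3.47% of all genes), and 2 higher and 0 lower in SjSs (5.38% and 3.80%). The call for Lpcat3 (0.15) was lost without B6 AC replicate 2 or 3 or B6 CpG replicate 2 or 3, at adjusted p of 0.0524 to 0.169. DESeq2 (adjusted p = 0.0852), DESeq2's size factors (adjusted p = 0.0775) and a fit of the compared groups alone (adjusted p = 0.0639) lost it too. For SjSs, the count of 0 from edgeR's test became 1 without SjSs CpG replicate 3 (Srebf1, adjusted p = 0.0341). ACs were on the BMDMs for 2 h, with RNA taken 3 h later, and CpG for 6 h. The part of this difference in time was not tested.

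Nr1h3 (chromosome 2, 91184061 to 91202834) encodes LXR alpha, the form that is most abundant in liver and in lipid-laden macrophages. It measured 38.4, 44.7 and 53.5 CPM in B6 controls and 164, 199 and 191 CPM after ACs. In SjSs it went from 47.7, 40.9 and 35.8 CPM to 167, 160 and 182 CPM. With CpG it was at 108, 148 and 144 CPM in B6 and at 153, 128 and 136 CPM in SjSs. All 12 treated samples lay above all 6 controls, with no overlap. The rise after ACs was 4.06-fold in B6 (log2 2.02 ± 0.13 SE, adjusted p = 8.95e-10) and 4.09-fold in SjSs (2.03 ± 0.13, adjusted p = 1.37e-10), and after CpG 2.93-fold and 3.35-fold (adjusted p = 5.82e-09 and 1.67e-09). The strains differed little in it: the SjSs minus B6 difference was -0.13 ± 0.13 in controls, -0.12 ± 0.13 with ACs and 0.06 ± 0.13 with CpG, and neither it nor the interactions (0.01 ± 0.18 and 0.19 ± 0.18) passed. ACs gave more Nr1h3 than CpG in B6 (0.47 ± 0.13, adjusted p = 0.00508), and in SjSs the difference was 0.29 ± 0.13 (adjusted p = 0.0661). The SjSs difference passed with the replicate number as a block (adjusted p = 0.00604), in a fit of the compared groups alone (adjusted p = 0.0074), with DESeq2 (adjusted p = 0.0346), with DESeq2's size factors (adjusted p = 0.0483) and without SjSs CpG replicate 1 (adjusted p = 0.0461).

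Nr1h2 (chromosome 7, 44549616 to 44553951) encodes LXR beta, the form that nearly all tissues make. Its 18 values ran from 81.0 to 103 CPM, and none of the 4 responses passed. With the replicate number as a block it fell with ACs in B6 (-0.13, adjusted p = 0.0451) and with CpG in SjSs (-0.13, adjusted p = 0.0279), the latter also without SjSs control replicate 1 or SjSs CpG replicate 2 (adjusted p of 0.0309 to 0.0400). The group means lay within 1.16-fold of each other, from 84.3 CPM in CpG treated SjSs to 97.4 CPM in AC treated SjSs BMDMs, and no neighbours in the order of the 6 groups differed at an adjusted p under 0.05. Smaller contrasts did pass: SjSs was above B6 with ACs (0.16 ± 0.06, adjusted p = 0.0206) and below it with CpG (-0.17 ± 0.06, adjusted p = 0.0358). The former was lost without B6 AC replicate 1 or 3 or SjSs AC replicate 2 or 3 (adjusted p of 0.0511 to 0.0793), the latter without B6 CpG replicate 2 or SjSs CpG replicate 1 or 3 (adjusted p of 0.0857 to 0.203). A fit of the compared groups alone also lost the latter (adjusted p = 0.126). The interaction of Nr1h2 with ACs (0.20 ± 0.08, adjusted p = 0.0484) was lost without 11 of the 12 libraries in turn, all but SjSs AC replicate 1 (adjusted p of 0.0511 to 0.114). Without a filter on low counts (adjusted p = 0.0607) and with a filter of 10 counts in 3 samples (adjusted p = 0.0512) it was lost too.

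**Figure D3:**
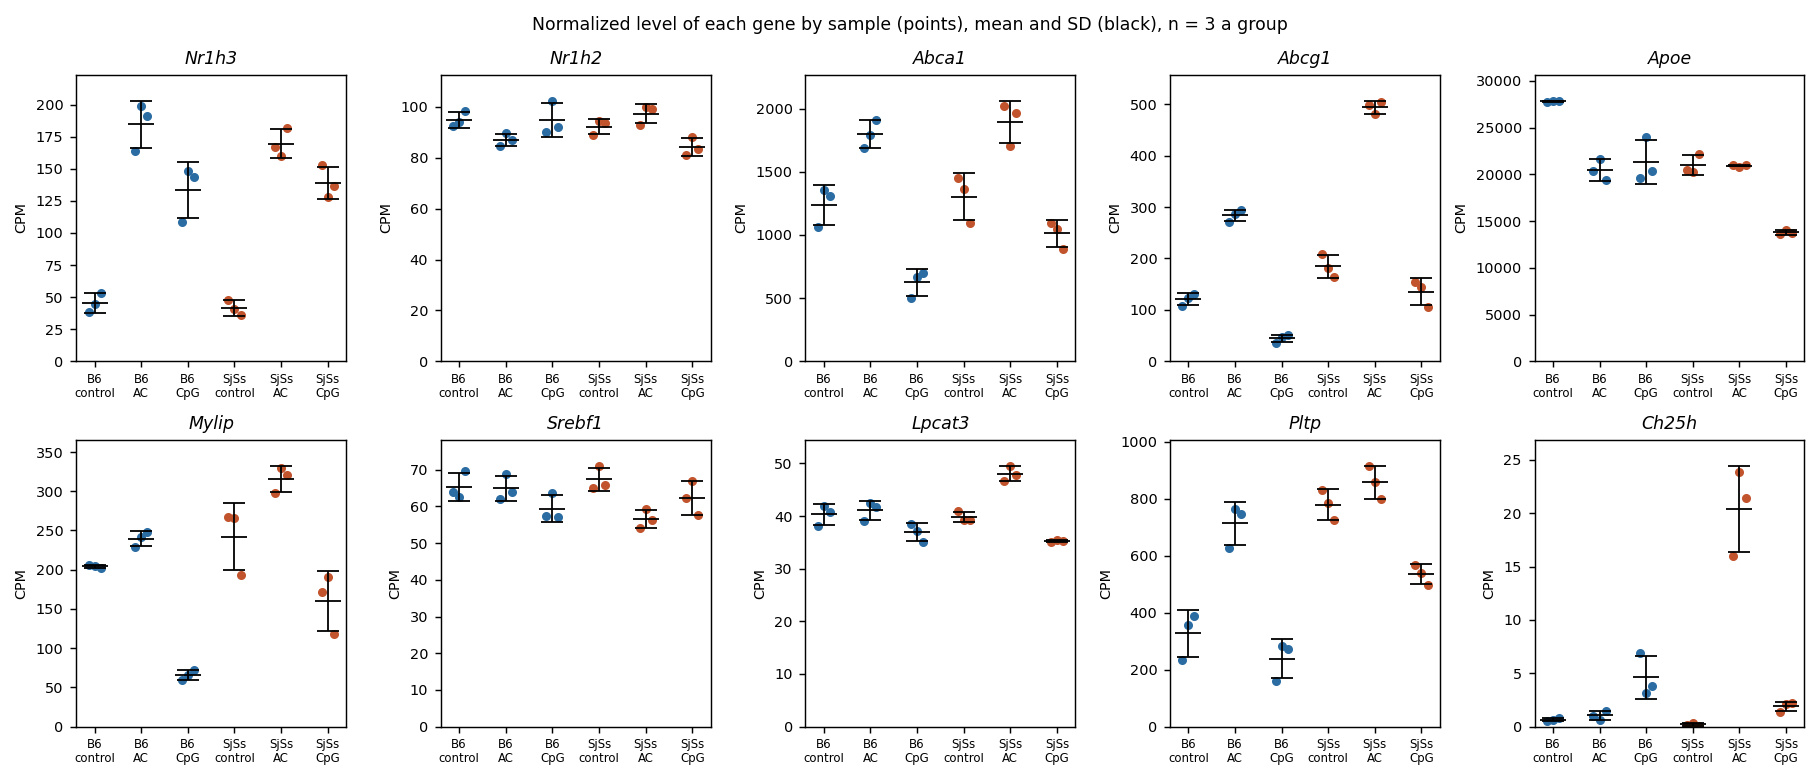
CPM of each of the 10 genes (vertical axes, from 0) in each sample (points; B6 blue, SjSs orange), with the mean and SD of the 3 samples of a group in black. Nr1h3 is raised in all 12 treated samples, the means of Abca1 and Abcg1 are highest with ACs and lowest with CpG in each strain, and Ch25h is at 15.9 to 23.8 CPM in AC treated SjSs samples and below 7 CPM elsewhere.

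Abca1 (chromosome 4, 53030787 to 53159895) loads cholesterol and phospholipid onto lipid-poor apolipoprotein A-I. In B6 it measured 1060, 1355 and 1307 CPM in controls, 1687, 1793 and 1909 with ACs and 504, 670 and 701 with CpG. In SjSs it measured 1447, 1367 and 1093 CPM in controls, 2017, 1703 and 1964 with ACs and 1096, 1047 and 891 with CpG. AC treated samples lay above the controls in each strain, CpG treated samples below them in B6, and in SjSs CpG replicate 1 reached into the range of the controls. ACs raised it 1.45-fold in B6 (0.53 ± 0.13, adjusted p = 0.00223) and 1.46-fold in SjSs (0.54 ± 0.13, adjusted p = 0.00109), and CpG lowered it 1.99-fold in B6 (-0.99 ± 0.13, adjusted p = 1.61e-06) and 1.29-fold in SjSs (-0.36 ± 0.13, adjusted p = 0.0196). The last call was lost without SjSs control replicate 1 or 2 or SjSs CpG replicate 3 (adjusted p of 0.0640 to 0.0999).

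Untreated and AC treated BMDMs of the strains did not differ detectably in Abca1 (0.07 ± 0.13 and 0.08 ± 0.13), and with CpG SjSs was 1.62-fold higher (0.69 ± 0.13, adjusted p = 0.000634). The fall with CpG was smaller in SjSs by 0.62 ± 0.18 (interaction, adjusted p = 0.0449). That interaction was lost without 8 of 12 libraries in turn, all but B6 control replicate 1, B6 CpG replicate 3, SjSs control replicate 1 and SjSs CpG replicate 3 (adjusted p of 0.0522 to 0.123), and with DESeq2's size factors (adjusted p = 0.0506). A fit of the compared groups alone also lost it (adjusted p = 0.0888).

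Abcg1 (chromosome 17, 31057675 to 31117988) passes cholesterol on to mature high-density lipoprotein. B6 controls measured 108, 124 and 131 CPM, AC treated samples 271, 287 and 293, and CpG treated samples 36.2, 46.6 and 50.3. SjSs controls measured 208, 182 and 164 CPM, AC treated samples 498, 481 and 505, and CpG treated samples 155, 145 and 105. No 2 groups of a strain overlapped, and SjSs lay above B6 under each treatment, also without overlap. ACs raised Abcg1 2.34-fold in B6 (1.23 ± 0.13, adjusted p = 3.41e-07) and 2.68-fold in SjSs (1.42 ± 0.13, adjusted p = 1.21e-08), whereas CpG lowered it 2.73-fold in B6 (-1.45 ± 0.13, adjusted p = 1.28e-08) and 1.37-fold in SjSs (-0.45 ± 0.13, adjusted p = 0.00501).

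The strain difference in Abcg1 was 0.61 ± 0.13 in controls (adjusted p = 0.00214), 0.80 ± 0.12 with ACs (adjusted p = 2.94e-05) and 1.61 ± 0.13 with CpG (adjusted p = 7.91e-08). Its interaction with CpG was 1.00 ± 0.18 (adjusted p = 0.00251), and with ACs 0.19 ± 0.18 (adjusted p = 0.435). In the order of the 6 group means, from 44.4 CPM in CpG treated B6 to 495 CPM in AC treated SjSs, only B6 controls and CpG treated SjSs BMDMs were neighbours that did not differ at an adjusted p under 0.05 (121 and 135 CPM, adjusted p = 0.306).

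Mylip (chromosome 13, 45389742 to 45412022) encodes a ubiquitin ligase that LXRs induce. It measured 206, 205 and 202 CPM in B6 controls, 229, 242 and 248 with ACs and 59.7, 65.1 and 71.7 with CpG. SjSs samples were at 268, 266 and 193 CPM in controls, 298, 330 and 320 with ACs and 171, 191 and 118 with CpG. With CpG it was lower in each strain without overlap, and SjSs samples lay above the B6 samples. CpG lowered it 3.12-fold in B6 (-1.64 ± 0.14, adjusted p = 4.91e-09) and 1.51-fold in SjSs (-0.60 ± 0.13, adjusted p = 0.000861), an interaction of 1.05 ± 0.19 (adjusted p = 0.00261).

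The response of Mylip to ACs was 0.38 ± 0.13 in SjSs (adjusted p = 0.0183; lost without SjSs control replicate 3 or SjSs AC replicate 2, adjusted p of 0.0595 to 0.121). In B6 it was 0.23 ± 0.13 (adjusted p = 0.192), although its AC treated samples lay above the controls, and a fit of the compared groups alone gave 0.22 with adjusted p = 0.00418. The interaction with ACs was 0.16 ± 0.19 (adjusted p = 0.565). SjSs was above B6 with ACs by 0.40 ± 0.13 (adjusted p = 0.0177; lost without B6 AC replicate 1 or SjSs AC replicate 2, adjusted p of 0.0585 to 0.0600) and with CpG by 1.29 ± 0.14 (adjusted p = 2.25e-06). In controls the difference was 0.24 ± 0.13 (adjusted p = 0.214).

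Apoe (chromosome 7, 19696109 to 19699188) encodes apolipoprotein E, which carries lipid out of macrophages. It measured 27773, 27890 and 27809 CPM in B6 controls, 20374, 21658 and 19373 with ACs and 19584, 24017 and 20408 with CpG. In SjSs it measured 20418, 20251 and 22193 CPM in controls, 20989, 20830 and 21008 with ACs and 13624, 14052 and 13687 with CpG. B6 controls lay above all other samples and CpG treated SjSs samples below all others. In B6 ACs lowered Apoe 1.36-fold (-0.44 ± 0.07, adjusted p = 5.48e-05), and in SjSs the change was -0.00080 ± 0.07 (adjusted p = 0.993), an interaction of 0.44 ± 0.10 (adjusted p = 0.00164). The low TMM factors of AC treated SjSs samples raise their CPM, and the part of this scaling in the interaction was not tested.

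CpG lowered Apoe in B6 (-0.38 ± 0.07, adjusted p = 0.00011) and in SjSs (-0.60 ± 0.07, adjusted p = 5.94e-07). The interaction with CpG was -0.22 ± 0.10 (adjusted p = 0.215). SjSs was below B6 in controls (-0.41 ± 0.07, adjusted p = 0.000457) and with CpG (-0.63 ± 0.07, adjusted p = 4.1e-06). With ACs the difference was 0.03 ± 0.07 (adjusted p = 0.722).

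Pltp (chromosome 2, 164839518 to 164857711) encodes the phospholipid transfer protein that remodels lipoprotein particles. B6 controls measured 234, 358 and 389 CPM and SjSs controls 831, 783 and 724. With ACs B6 reached 627, 765 and 747 CPM and SjSs 913, 860 and 798. With CpG the values were 159, 284 and 273 in B6 and 566, 540 and 496 in SjSs. SjSs lay above B6 under each treatment with no overlap, and AC treated B6 samples overlapped the SjSs controls. ACs raised Pltp 2.18-fold in B6 (1.13 ± 0.18, adjusted p = 5.24e-05), while in SjSs the change was 0.14 ± 0.18 (adjusted p = 0.528), an interaction of -0.99 ± 0.25 (adjusted p = 0.00403).

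SjSs was above B6 in Pltp by 1.25 ± 0.18 in controls (2.38-fold, adjusted p = 6.98e-05) and by 1.16 ± 0.18 with CpG (adjusted p = 0.000119), and by 0.27 ± 0.18 with ACs (adjusted p = 0.224; adjusted p = 0.00903 in a fit of the compared groups alone). CpG lowered it in B6 by log2 -0.45 ± 0.18 (adjusted p = 0.0341) and in SjSs by -0.54 ± 0.18 (adjusted p = 0.0135). The B6 call was lost without B6 control replicate 2 or 3 or B6 CpG replicate 1 (adjusted p of 0.109 to 0.195), with DESeq2 (adjusted p = 0.0516) and in a fit of the compared groups alone (adjusted p = 0.122), and the SjSs call without SjSs CpG replicate 3 (adjusted p = 0.0509). Pltp shares 1516 bases with Ctsa, the lysosomal protective protein, on the other strand, and whether counting used strand was not given in the sources used here. Ctsa measured 972 CPM in B6 controls. It fell with CpG as Pltp did, by 0.27 in B6 and by 0.28 in SjSs, and was higher with ACs than with CpG in SjSs (0.33). For the other calls of Pltp it stood at -0.22 with ACs in B6, at -0.01 and -0.02 between the strains in controls and with CpG, and at 0.27 for the interaction with ACs. The part of shared reads in the results was not tested.

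Srebf1 (chromosome 11, 60199089 to 60222581) encodes SREBP1, the regulator of fatty acid synthesis, and Lpcat3 (chromosome 6, 124663027 to 124704418) an acyltransferase that puts polyunsaturated chains into phospholipids. Both moved little. Srebf1 measured 64.0, 62.5 and 69.7 CPM in B6 controls and 62.1, 68.8 and 64.0 with ACs. In SjSs it measured 65.2, 71.1 and 66.0 CPM in controls and 54.2, 59.2 and 56.2 with ACs. Only the last group lay apart from its controls: Srebf1 fell by 0.25 ± 0.07 (adjusted p = 0.00316), a 1.19-fold change. The interaction with ACs was -0.24 ± 0.09 (adjusted p = 0.0491) and the SjSs minus B6 difference with ACs -0.20 ± 0.07 (adjusted p = 0.0181).

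Those last calls were weak. The interaction of Srebf1 was lost without 8 of 12 libraries in turn (all but B6 control replicate 3, B6 AC replicate 1, SjSs control replicate 1 and SjSs AC replicate 2; adjusted p of 0.0544 to 0.133), with DESeq2 (adjusted p = 0.0806), with DESeq2's size factors (adjusted p = 0.0792) and without a filter on low counts (adjusted p = 0.0715). The strain difference was lost without B6 AC replicate 2 or SjSs AC replicate 1 or 3 (adjusted p of 0.0515 to 0.0949). With CpG, Srebf1 changed by -0.14 ± 0.07 in B6 (adjusted p = 0.0816, and adjusted p = 0.0472 with the replicate number as a block) and by -0.11 ± 0.07 in SjSs (adjusted p = 0.167). The gene level counts sum all of its start sites, including the one whose promoter is printed. Srebf1 shares 110 bases with Rai1 on the other strand, and Rai1 was lower in the same comparisons, at -0.56 with ACs in SjSs (adjusted p = 3.04e-06), -0.38 for the interaction (adjusted p = 0.00771) and -0.24 for SjSs minus B6 with ACs (adjusted p = 0.0147). Whether reads of Rai1 were counted for Srebf1 was not tested.

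Lpcat3 was at 38.1, 41.9 and 40.9 CPM in B6 controls and at 39.0, 42.5 and 41.7 with ACs, and the change of 0.03 ± 0.05 did not pass (adjusted p = 0.739). SjSs went from 41.0, 39.2 and 39.3 to 46.7, 49.5 and 47.9 CPM, above every other sample of the 18. That rise was 1.21-fold (0.27 ± 0.05, adjusted p = 0.000252), and its interaction was 0.24 ± 0.08 (adjusted p = 0.0163; adjusted p = 0.0528 without B6 AC replicate 1). With CpG Lpcat3 changed by -0.18 ± 0.05 in SjSs (adjusted p = 0.00921) and by -0.12 ± 0.05 in B6 (adjusted p = 0.0556; adjusted p of 0.0251 and 0.0351 without B6 control replicate 1 and without B6 CpG replicate 1). Emg1, which shares 335 bases with Lpcat3 on the other strand, stood at 0.09 with ACs in SjSs and at -0.21 for the interaction, neither of which passed, and rose with CpG by 0.53 in B6 and 0.35 in SjSs.

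Ch25h (chromosome 19, 34473778 to 34475164) makes 25-hydroxycholesterol, an oxysterol that binds LXRs and holds back SREBP2. It was the lowest of the 10 per length in B6 controls, and of the 10 it had the largest response to ACs in SjSs and to CpG in both strains. B6 controls measured 0.544, 0.605 and 0.817 CPM (34, 29 and 46 counts) and SjSs controls 0.184, 0.355 and 0.0725 CPM (10, 12 and 4 counts). With ACs B6 was at 1.01, 0.624 and 1.49 CPM, and SjSs at 15.9, 23.8 and 21.4 CPM (617, 1134 and 953 counts). With CpG the values were 6.93, 3.14 and 3.80 in B6 and 1.37, 2.10 and 2.19 in SjSs. The AC treated SjSs samples lay above every other sample, and the AC treated B6 samples overlapped their controls. Gm26902, which shares 329 bases with Ch25h on the other strand, had group means of 0.165 CPM or less.

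In SjSs the rise with ACs was 109-fold (6.77 ± 0.41, adjusted p = 4.38e-11), the 42nd highest log2 fold change of 15789 genes. In B6 it was 0.65 ± 0.39 (adjusted p = 0.208). The interaction was 6.12 ± 0.60 (adjusted p = 1.88e-07), rank 17 from the top. The size of the rise in SjSs and of the interaction rests on SjSs controls of 10, 12 and 4 counts. Set directly against B6 with ACs, SjSs was higher by 4.30 ± 0.32 (adjusted p = 2.03e-09), a difference taken without the controls. With CpG Ch25h rose 7.10-fold in B6 (2.83 ± 0.34, adjusted p = 7.65e-07) and 10.1-fold in SjSs (3.34 ± 0.47, adjusted p = 7.02e-06), and that interaction did not pass (0.51 ± 0.63, adjusted p = 0.711). SjSs was below B6 with CpG (-1.31 ± 0.31, adjusted p = 0.00535) and in controls (-1.82 ± 0.54, adjusted p = 0.0231). The call in controls rests on few counts and was lost without B6 control replicate 3 or SjSs control replicate 1 or 3 (adjusted p of 0.0632 to 0.133).

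Between the strains as a whole, SjSs controls were higher than B6 controls in 2 of the 10 genes (Pltp and Abcg1; 9.04% of all genes were higher) and lower in 2 (Apoe and Ch25h; 10.6%). With ACs SjSs was higher in 5 (Ch25h, Abcg1, Mylip, Lpcat3 and Nr1h2; 24.0%) and lower in 1 (Srebf1; 25.5%). With CpG it was higher in 4 (Abcg1, Mylip, Pltp and Abca1; 10.2%) and lower in 3 (Ch25h, Apoe and Nr1h2; 9.57%). The response to ACs was higher in SjSs for 4 genes (Ch25h, Apoe, Lpcat3 and Nr1h2; 19.6% of all genes) and lower for 2 (Pltp and Srebf1; 18.3%). The response to CpG was higher in SjSs for 3 (Mylip, Abcg1 and Abca1; 3.23%) and lower for 0 (2.62%), by edgeR. Past a log2 fold change of 1.3, 1 of the 10 differed in controls, where it was lower in SjSs (2.01% of all genes passed either way). The counts higher and lower in SjSs were 1 and 0 with ACs (6.24% and 2.69%) and 1 and 1 with CpG (1.82% and 0.792%). For the interactions they were 1 and 0 with ACs (4.76% and 2.77%) and 0 and 0 with CpG (0.285% and 0.329%). None of the 10 genes lies on chromosome 1 or 3, where the NOD intervals of the strain are.

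**Figure D4:**
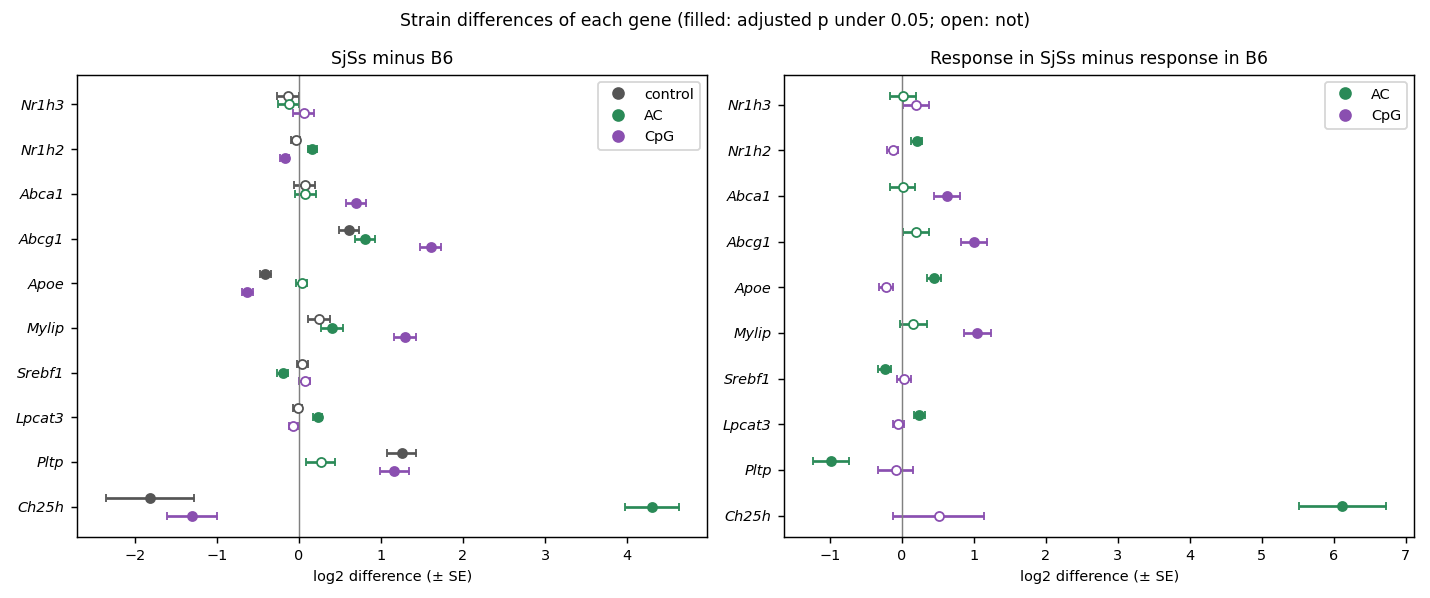
SjSs minus B6 log2 difference under each treatment (left) and difference of the responses (right), with bars ± SE and filled points for an adjusted p under 0.05 (grey: control, green: AC, purple: CpG). On the right, Abca1, Abcg1 and Mylip are filled for CpG alone, at 0.62, 1.00 and 1.05, and Ch25h for ACs alone, at 6.12.

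Genes that work with the 10 were read from fixed lists. Of 7 tested RXR and peroxisome proliferator-activated receptors and co-regulators, ACs raised 1 and lowered 3 in B6 (20.0% and 18.3% of all genes), and raised 0 and lowered 6 in SjSs (28.6% and 29.4%). CpG raised 1 and lowered 5 in each strain (28.1% and 29.8% of all genes in B6, 27.8% and 26.4% in SjSs). The interaction with ACs was negative and passed for all 7 (18.3% of all genes). Rxra, the main LXR partner, was at 275 ± 4.75 CPM (SD, n = 3) in B6 controls and at 181 ± 13.7 with ACs, and in SjSs at 258 ± 18.7 and 116 ± 8.05 (log2 -0.60 and -1.15). With CpG it fell by 1.31 in B6 and by 1.19 in SjSs on the log2 scale.

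Of 11 further LXR targets tested, ACs raised 2 and lowered 3 in B6 (20.0% and 18.3% of all genes) and raised 2 and lowered 4 in SjSs (28.6% and 29.4%), which is near the share of all genes for most of these counts. CpG raised 2 and lowered 7 in B6 (28.1% and 29.8%) and raised 1 and lowered 5 in SjSs (27.8% and 26.4%). Their medians with ACs were -0.04 and -0.06, beside 0.38 and 0.33 for the 10 genes. Cd5l, a secreted macrophage protein that limits cell death, rose by 1.38 with ACs in B6 and by 0.30 in SjSs (interaction -1.08, passed). Arl4c, a small GTPase that has been tied to cholesterol efflux, fell by 3.90 with CpG in B6 and by 1.95 in SjSs, from 481 to 32.2 CPM and from 591 to 153 CPM, and this interaction passed at 1.95. Scd2, a fatty acid desaturase, fell by 1.63 with ACs in SjSs.

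Of 6 tested genes that make, break down or sense oxysterols, ACs raised 1 and lowered 3 in B6 (20.0% and 18.3% of all genes) and raised 0 and lowered 5 in SjSs (28.6% and 29.4%). CpG raised 2 and lowered 2 in B6 (28.1% and 29.8%), near the shares of all genes, and raised 2 and lowered 3 in SjSs (27.8% and 26.4%). Gpr183, the receptor by which cells migrate towards an oxysterol made from the Ch25h product, went from 7.48 ± 0.45 to 0.35 ± 0.14 CPM with ACs in SjSs (-4.43) and from a mean of 6.42 CPM (5.29 to 8.12) to 1.85 ± 0.31 CPM in B6 (-1.80), an interaction of -2.62 that passed. Cyp27a1, which makes 27-hydroxycholesterol, fell with CpG by 2.54 in B6 and by 1.97 in SjSs. With ACs it fell by 1.11 in B6, and its interaction of 1.22 passed.

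Of 9 genes of cholesterol ester storage, lysosomal release and other export, ACs raised 0 and lowered 6 in B6 (20.0% and 18.3% of all genes) and raised 3 and lowered 4 in SjSs (28.6% and 29.4%). CpG raised 2 and lowered 6 in B6 (28.1% and 29.8%) and raised 3 and lowered 6 in SjSs (27.8% and 26.4%). Nceh1, a cholesteryl ester hydrolase, fell with CpG by 2.10 in B6 and by 1.34 in SjSs (interaction 0.76, passed). Stard3, a cholesterol-binding protein of late endosomes, rose by 1.06 with ACs in SjSs, where B6 stood at 0.03 (interaction 1.04, passed).

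Of 9 tested genes of the SREBP2 axis, which take up and make cholesterol, ACs raised 0 and lowered 8 in B6 (20.0% and 18.3% of all genes), with a median of -1.03. In SjSs they raised 2 and lowered 3, near the 28.6% and 29.4% of all genes, with a median of -0.079. CpG raised 7 and lowered 1 in B6 (28.1% and 29.8%) and raised 6 and lowered 1 in SjSs (27.8% and 26.4%). In controls SjSs was lower in 7 and higher in 0 (10.6% and 9.04%), and the interaction with ACs was positive in the 5 that passed (19.6%). Insig1, which holds SREBPs in the endoplasmic reticulum, fell with ACs by 1.16 in B6 and rose by 0.87 in SjSs, an interaction of 2.02.

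**Figure D5:**
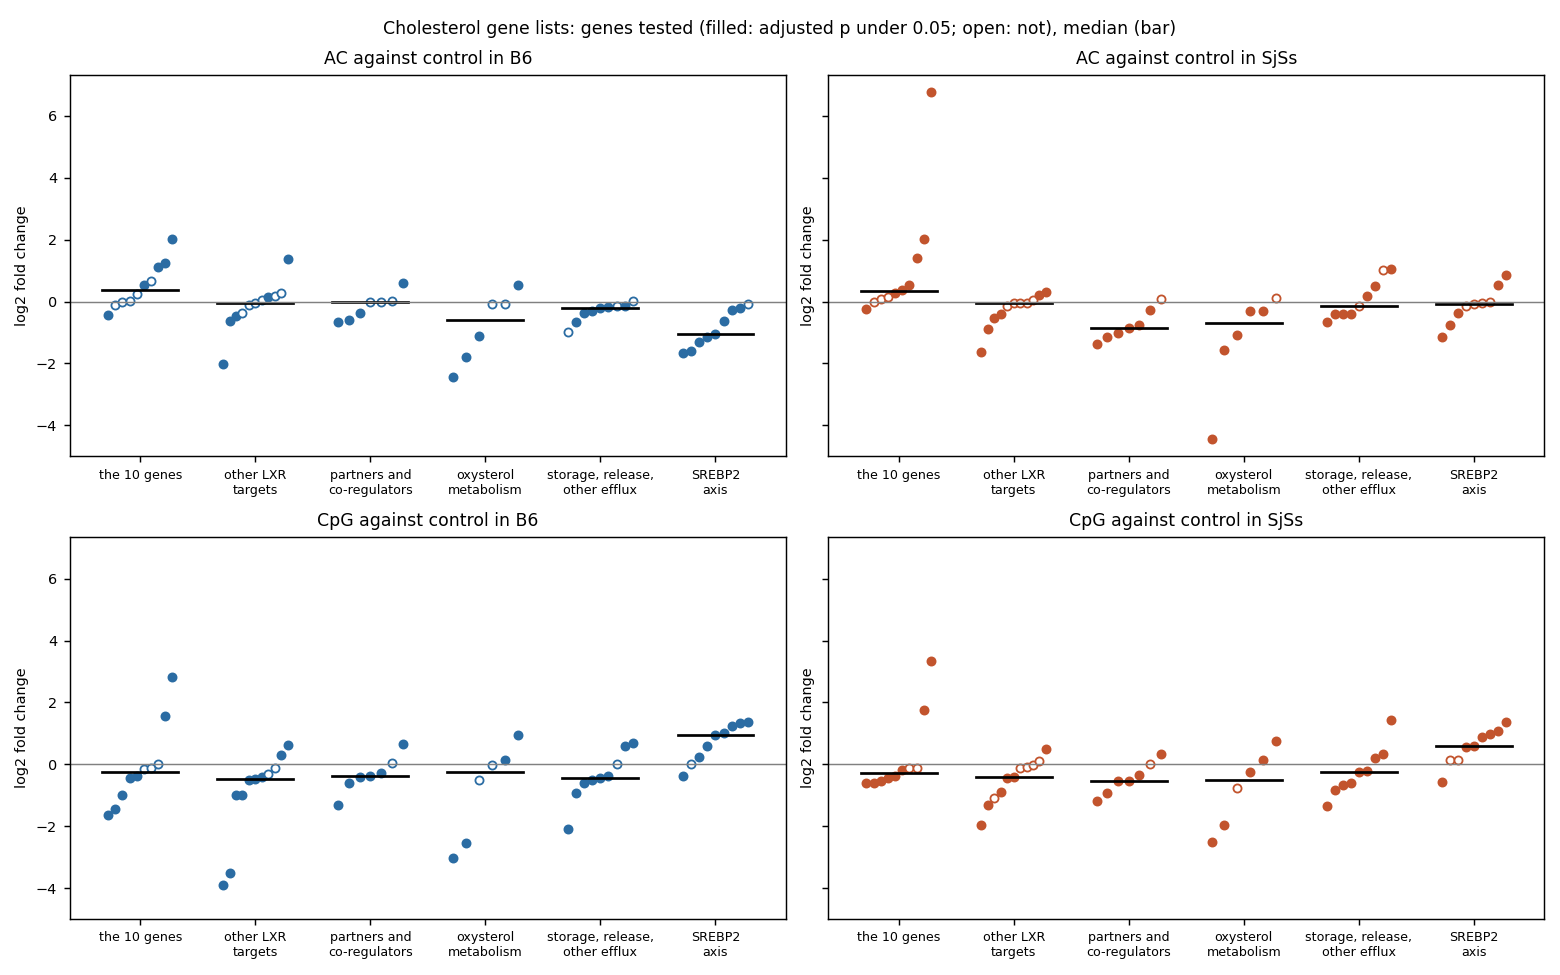
Log2 fold change against control (vertical axis) of the tested genes of each list in the 4 responses (B6 blue, SjSs orange), filled for an adjusted p under 0.05, with the median as a black bar. With ACs the SREBP2 axis has a median of -1.03 in B6 and -0.079 in SjSs, and with CpG its medians are 0.95 and 0.61.

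For Abca1, Nr1h3 and Ch25h the genes with the most similar pattern over the 18 samples were taken by Pearson's r of log2 CPM, as a description in samples that share their groups. Abca1 was most like Gpr162 (r = 0.97), Xdh (0.97) and Pqlc3 (0.96), of which Xdh went from 342 to 421 CPM with ACs and 177 CPM with CpG in B6. Nr1h3 was most like Gm5913 (0.97), Met (0.97) and Cstb (0.97). Ch25h was most like Spred1 (0.98), H3f3b (0.97) and Coa5 (0.97). By Spearman's rho, 1 of the first 3 genes stayed for Abca1 (Xdh) and 0 for Nr1h3 and Ch25h.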

How the data were processed

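The authors aligned RNA-seq reads to mm10 with STAR and quantified genes with Partek's E/M tool. The deposited values were estimated counts per gene, not normalized, and 41.1% were not whole numbers. DESeq2 3.13 is named in the submitters' processing notes. Counts were rounded and analysed in R 4.3.3 with edgeR 4.0.16 (DESeq2 1.42.0 as an alternative): filterByExpr, TMM, a mean for each of the 6 groups over all 18 samples, quasi-likelihood tests and Benjamini-Hochberg adjustment over 15789 genes within each of 11 comparisons. "Passed", rose and fell mean an adjusted p under 0.05. The SE is the log2 fold change divided by the square root of F. The test was checked on simulated data. Coordinates are GRCm38, GENCODE M21. At most 4 genes of a list were named, among the largest changes that passed. Rxra and Insig1 were singled out after their values were seen. The 10 genes, the lists and the tests were chosen with earlier results of these data known. Counting error alone is small except for Ch25h.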

Additional observations from a re-analysis of the deposited data

Results flagged for a closer look

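For 9 results the response differed between the strains by the test of the interaction (edgeR, adjusted p under 0.05). With ACs, the SjSs response minus the B6 response was 6.12 for Ch25h, 0.44 for Apoe, 0.24 for Lpcat3, 0.20 for Nr1h2, -0.99 for Pltp and -0.24 for Srebf1 on the log2 scale. With CpG it was 1.05 for Mylip, 1.00 for Abcg1 and 0.62 for Abca1. The interactions of Nr1h2, Srebf1 and Abca1 had adjusted p of 0.0484, 0.0491 and 0.0449.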

How the results depend on the processing

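Of the 110 member results, 68 passed, and 54 of these kept their call without each library in turn. No result that passed changed sign. Depth limits Ch25h most, at 4 to 12 counts in SjSs controls. Stromal markers differed between the strains, and cannot be told apart from the strain with these samples.

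With a log2 fold change over 1.3 as well, the counts of genes higher and lower became 1 and 0 (ACs, B6), 3 and 0 (ACs, SjSs), 2 and 2 (CpG, B6), 2 and 0 (CpG, SjSs), 0 and 1, 1 and 0, and 1 and 1 (SjSs against B6 in controls, with ACs and with CpG), 1 and 0 and 0 and 0 (interactions with ACs and CpG), and 2 higher for ACs against CpG in SjSs. DESeq2, DESeq2's size factors and no filter each left 1 gene lower in the interaction with ACs, and DESeq2 and its size factors each gave 2 genes lower for ACs against CpG in B6. Leaving out 1 library moved the counts to 2 to 4 higher and 1 to 2 lower for the interaction with ACs, 1 to 2 lower in controls, 3 to 5 higher and 0 to 1 lower with ACs, and 1 to 2 and 0 to 1 lower for ACs against CpG in B6 and SjSs. The counts lower with CpG ran from 4 to 6 in B6 and from 4 to 7 in SjSs. Those higher with ACs in SjSs were 5 to 6, and those higher for the interaction with CpG 2 to 3. SjSs was lower than B6 with CpG in 2 to 3. For ACs against CpG, 5 to 6 were higher in B6 and 8 to 9 in SjSs.

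Signs turned for results that had not passed: Apoe with ACs in SjSs was 0.023 by DESeq2 and by its size factors, and Nr1h2 with CpG in B6 was -0.019 with no filter. The lowest and highest values without 1 library in turn were -0.011 and 0.063 for Lpcat3 and -0.051 and 0.039 for Srebf1 (ACs, B6), -0.024 and 0.042 for Apoe (ACs, SjSs), and -0.057 and 0.037 for Nr1h2 (CpG, B6). For SjSs against B6 they were -0.031 and 0.18 for Abca1 and -0.054 and 0.014 for Lpcat3 in controls, -0.0049 and 0.075 for Apoe with ACs and -0.070 and 0.14 for Nr1h3 with CpG. For the interactions they were -0.11 and 0.11 for Abca1 and -0.12 and 0.13 for Nr1h3 with ACs, and -0.028 and 0.078 for Srebf1 and -0.32 and 0.10 for Pltp with CpG. Apoe ran from -0.12 to 0.034 for ACs against CpG in B6. The cause was not tested.

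Whether equal replicate numbers mark the same one of a strain's 3 mice was not stated. Deviations from the group means of samples with the same number within a strain correlated at r of 0.020 to 0.26. The r was above 0 in 18 of 18 pairs and over 0.1 in 9 of 18. In both other treatments of the strain, 14 of 18 samples correlated best with their own number, a hint from the data only. With the replicate number as a block, 5 results gained the call and 0 lost it: Nr1h2 with ACs in B6, for ACs against CpG in B6 (2 genes lower in each) and with CpG in SjSs, Srebf1 with CpG in B6 and Nr1h3 for ACs against CpG in SjSs. Nr1h2 with CpG in B6 was -0.0015. For the differences between the strains, the block joined equal numbers of both strains, which are different mice. It is thus no check of a shared mouse there.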
